A study of Mus musculus with 6 samples.

Results

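The 10 genes described here encode the machinery that links a muscle action potential to calcium release: 4 subunits of the dihydropyridine receptor (Cacna1s, Cacnb1, Cacng1 and Cacna2d1), its adaptor Stac3, the ryanodine receptors Ryr1 and Ryr3, the junctophilins Jph1 and Jph2, and the junctional protein Jsrp1. They were taken by gene name from the 55401 genes of the deposited table, each name matched 1 row, and all 10 passed the filter on low values. SENP7 siRNA was compared with control siRNA in C2C12 myotubes, multinucleated cells formed by an established mouse myoblast line, which are a cell culture model without nerve contact. The SENP7 group was treated with an siRNA against the SUMO protease SENP7 and the control group with the GL2 siRNA, whose usual target is a firefly luciferase, both with 100 pmol for 3 days. Each group had 3 libraries, which the labels number as replicates without saying whether they came from separate cultures. Polyadenylated RNA was sequenced, and the comparison addressed the effect of SENP7 siRNA on muscle cell transcripts. Positions are on GRCm38.

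In skeletal muscle the dihydropyridine receptor sits in the transverse tubule and senses voltage, and the ryanodine receptor sits opposite it in the sarcoplasmic reticulum and releases calcium. Both channels are in contact, so that calcium entry through the voltage sensor is not needed for release. Junctophilins hold the 2 membranes together at the triad, and STAC proteins carry the voltage sensor to the surface and couple it to release.

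The libraries held 25434880 to 30865945 reads in the SENP7 group and 25223218 to 27763538 in the control group, and values are normalized counts, that is reads divided by 1 factor per library. Genes were tested with limma on the log2 scale, with p adjusted over all genes and passed at 0.05, and each result was repeated under up to 17 other settings, among them leaving out each library. Control replicate 3 stood apart from the other control libraries, nearer to the SENP7 libraries on the first principal component. Several results are therefore given with and without it. All 6 libraries carried the transcripts of differentiated muscle. The summed normalized count of 8 myotube markers was between 609521 and 700629 in SENP7 libraries and between 568480 and 587335 in control libraries, and 2 of the 8, Mymk and Ckm, rose. Of 6 markers of cycling or undifferentiated myoblasts 1, Pax7, rose and the others did not pass. Their sum was between 5860.0 and 7132 in SENP7 libraries and between 6126 and 8069 in control libraries. The part of these markers in the results below was not tested. Of 4 neuron markers Rbfox3, Snap25 and Syt1 were listed at 0 in all libraries, and the fourth, Syn1, had normalized counts of 518 to 570.3 in SENP7 libraries and 544 to 612 in control libraries and did not pass. Of 4 heart markers Tnni3 rose and Myh6 fell, and 3 adipocyte, 2 endothelial and 1 of 2 leukocyte markers stayed below 10 in every library. Senp7 itself had normalized counts of 275, 279 and 347 in SENP7 libraries, against 556, 616 and 649 in control libraries (log2 fold change -1.02 ± 0.11, SE, adjusted p = 0.000428).

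Of the 10 coupling genes, Stac3, Ryr3 and Jsrp1 rose, Jph1 fell and 6 did not pass the test. Among all 14668 genes tested, 20.9% passed in either direction, 10.2% as rises and 10.7% as falls, against 4 of the 10 coupling genes, a small set that was chosen with results of these data known. The median log2 fold change of the 10 was 0.14, beside -0.0025 for all genes tested. In 5 of the 10 genes the values of the 2 groups did not overlap, 4 with higher and 1 with lower values in SENP7 libraries. This held for 39.6% of all tested genes, 19.3% with higher and 20.4% with lower values in SENP7 libraries. The pore-forming subunit Cacna1s and the main release channel Ryr1 were both among the genes that did not pass. In bulk RNA, fewer cells of a type and less RNA per cell cannot be told apart, and all counts are per gene, over all its transcript forms.

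**Figure D1:**
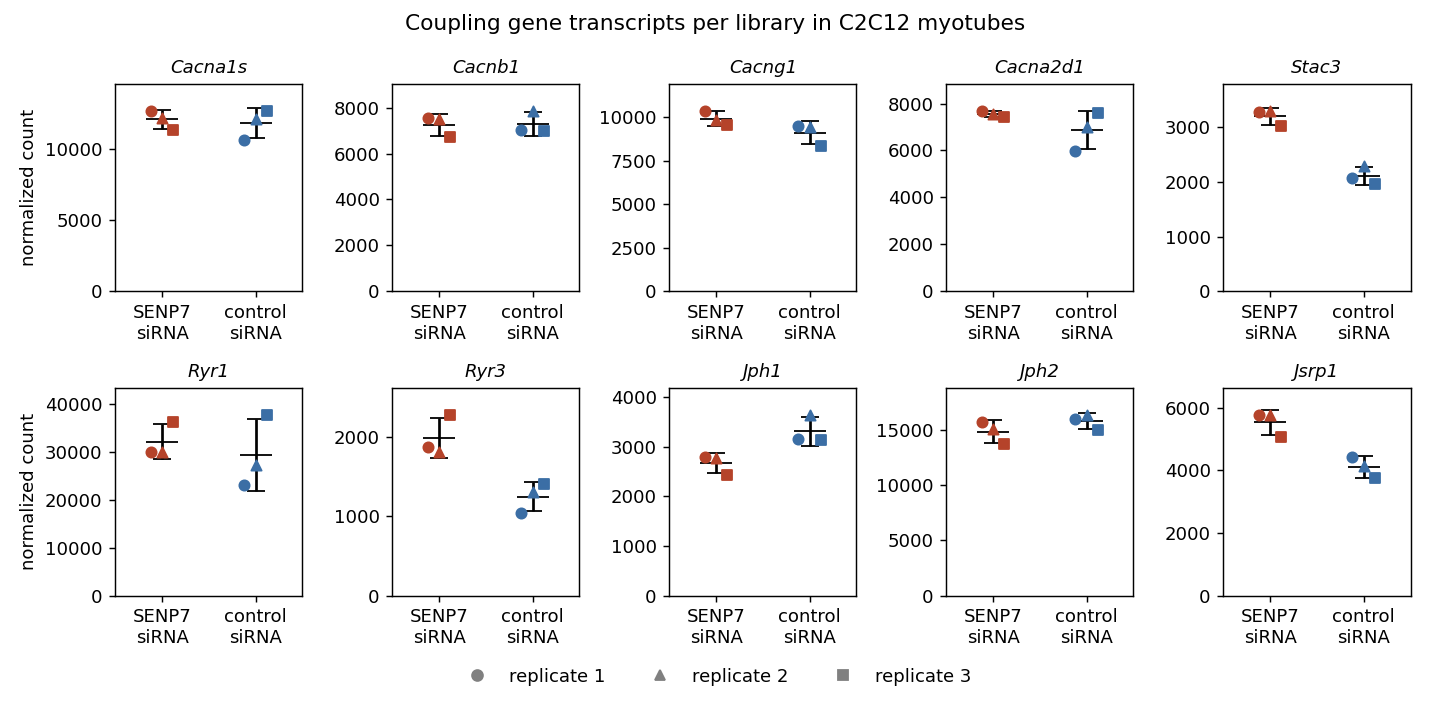
Normalized counts of the 10 coupling genes in each library (y axes start at 0), SENP7 siRNA on the left and control siRNA on the right of each panel. Points are libraries, with the shape giving the replicate number; bars are mean ± SD (n = 3). The groups are separate in Stac3, Ryr3, Jsrp1, Jph1 and, narrowly, Cacng1.

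Cacna1s (ENSMUSG00000026407.17, chr1:136052750-136119822, plus strand) encodes the voltage-sensing pore subunit. It had normalized counts of 12647, 12122 and 11333 in SENP7 libraries, against 10590.2, 12050.1 and 12648 in control libraries. All 3 SENP7 values lay within the control range. Its log2 fold change was 0.035 ± 0.08 (SE, 95% interval -0.15 to 0.22, adjusted p = 0.799), and it turned to -0.038 without control replicate 1 and to -0.0012 without SENP7 replicate 1. Exons of Gm37759 lie opposite 20.0% of its exon length, and that gene held 4 reads over the 3 SENP7 libraries and 4 over the 3 control libraries.

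RefSeq promoter windows on GRCm38.p6, from 250 bases before to 50 bases after the start, were at hand for 5 of the 10 genes (Ryr1, Cacna1s, Cacnb1, Cacna2d1 and Jph2). Those of the 2 channels that face each other across the triad are shown, Cacna1s at chr1:136052561-136052860 on the plus strand and Ryr1 at chr7:29125102-29125401 on the minus strand. Capitals mark the palindromic E-box CAGCTG, a motif bound by myogenic factors.
Cacna1s: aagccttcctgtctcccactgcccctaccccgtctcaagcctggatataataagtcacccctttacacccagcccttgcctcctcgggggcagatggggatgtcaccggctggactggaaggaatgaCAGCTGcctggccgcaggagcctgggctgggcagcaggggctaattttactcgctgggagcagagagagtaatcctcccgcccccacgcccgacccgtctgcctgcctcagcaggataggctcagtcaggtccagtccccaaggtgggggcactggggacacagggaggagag
Ryr1: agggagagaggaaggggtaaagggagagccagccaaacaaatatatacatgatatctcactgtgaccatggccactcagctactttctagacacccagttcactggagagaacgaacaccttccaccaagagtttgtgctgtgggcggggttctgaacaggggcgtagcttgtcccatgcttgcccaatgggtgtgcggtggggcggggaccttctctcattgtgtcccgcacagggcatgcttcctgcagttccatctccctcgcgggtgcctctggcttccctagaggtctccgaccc
The Cacna1s window held CAGCTG 1 time, 123 bases before the start, and the Ryr1 window did not hold these letters. Jph2 held it 1 time in each of its 2 overlapping windows, while the windows of Cacnb1 and Cacna2d1 did not. CAGCTG occurred in 16.3% of all 32851 promoter windows. The MEF2 motif was searched on both strands only as the exact pattern YTAWWWWTAR (Y is C or T, W is A or T, R is A or G). It was present in 3.19% of all windows and in none of the 7 windows of the 5 genes. Near matches to the pattern were not counted.

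Cacnb1 (ENSMUSG00000020882.17, chr11:98001508-98023034, minus strand), the beta subunit that brings the voltage sensor to the membrane and arranges it opposite the release channel, had normalized counts of 7528, 7497 and 6709 in SENP7 libraries, against 7018, 7865 and 6971 in control libraries. The groups overlapped and the means were close, the log2 fold change being -0.01 ± 0.08 (SE, 95% interval -0.18 to 0.16, adjusted p = 0.958) whose sign turned under quantile normalization (0.058). Cacng1 (ENSMUSG00000020722.5, chr11:107703218-107716522, minus strand), the muscle gamma subunit, had 10373, 9841 and 9563 in SENP7 libraries, against 9516, 9449 and 8333 in control libraries. Every SENP7 value lay above every control value by a small margin, yet the gene did not pass (log2 fold change 0.13 ± 0.07, SE, 95% interval -0.04 to 0.29, adjusted p = 0.258).

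Cacna2d1 (ENSMUSG00000040118.15, chr5:15934691-16374511, plus strand), the extracellular alpha2delta subunit, had normalized counts of 7693, 7572 and 7434 in SENP7 libraries, against 5997, 6990.2 and 7588 in control libraries. Control replicate 3 lay inside the SENP7 range and control replicates 1 and 2 below it. The log2 fold change was 0.15 ± 0.09 (SE, 95% interval -0.05 to 0.34, adjusted p = 0.261). Without control replicate 3 it was 0.22 and passed (adjusted p = 0.0321; 0.0192 to 0.61 over all settings). Relative to Cacna1s, its log2 ratio was -0.67 ± 0.06 in SENP7 libraries and -0.78 ± 0.04 in control libraries (SD, n = 3 each), a difference of 0.11 without overlap.

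Stac3 (ENSMUSG00000040287.9, chr10:127501686-127508823, plus strand), the adaptor that the voltage sensor of skeletal muscle needs to reach the surface and to couple, rose 1.51-fold. Its normalized counts were 3272, 3297 and 3011 in SENP7 libraries, against 2075, 2286 and 1967 in control libraries. All 3 SENP7 libraries lay above all control libraries, with a gap wider than the range within either group. The log2 fold change was 0.60 ± 0.07 (SE, adjusted p = 0.000727), it passed in every setting run, and the authors' deposited table gave 0.58 with an adjusted p of 4.35e-10. Relative to Cacna1s in the same library, Stac3 differed between groups by 0.56 on the log2 scale (mean log2 ratio -1.91 ± 0.04 in SENP7 and -2.48 ± 0.18 in control libraries, SD, n = 3 each), without overlap. The exact two-sided permutation p was 0.1, the smallest that 3 against 3 libraries allow, for this and for each of the 4 ratios computed (0.1 adjusted over the 4). Without control replicate 3 the difference of Stac3 relative to Cacna1s was 0.46.

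The relatives of Stac3 moved the other way. Stac2, a STAC protein better known from neurons, had normalized counts of 1224, 1153 and 1104 in SENP7 libraries, against 2109, 2152 and 1997 in control libraries. The groups were far apart, and the gene fell by 0.85 ± 0.06 on the log2 scale (SE, adjusted p = 7.07e-05). Stac, the third paralogue, was low, at 18.6, 22.5 and 22.7 in SENP7 libraries, against 78.6, 53.4 and 54.5 in control libraries (log2 fold change -1.49 ± 0.22, SE, adjusted p = 0.00193). Both passed in every setting that tested them. For Stac the authors' deposited DESeq2 estimate was smaller in size, at -1.03 (adjusted p = 6.44e-05).

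To compare genes, normalized counts were divided by exon length. That length covers all annotated exons of a gene, used or not, so levels compared between genes are approximate. Per kilobase of exon, Stac3 made up 76.4%, 77.5% and 76.7% of STAC transcripts in SENP7 libraries, against 53.8%, 56.0% and 54.1% in control libraries. Stac2 made up 22.6 ± 0.6% in SENP7 libraries and 43.8 ± 0.96% in control libraries (SD, n = 3 each). Per kilobase, SENP7 libraries averaged 1256 normalized counts of Stac3 and 369.6 of Stac2, and control libraries 829.5 of Stac3 and 664 of Stac2. The summed level of the 3 genes was 1633 ± 77.5 per kilobase in SENP7 libraries and 1518 ± 87.3 in control libraries (SD, n = 3 each), with overlapping ranges. The shares are a description computed after the changes of both genes were seen.

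**Figure D2:**
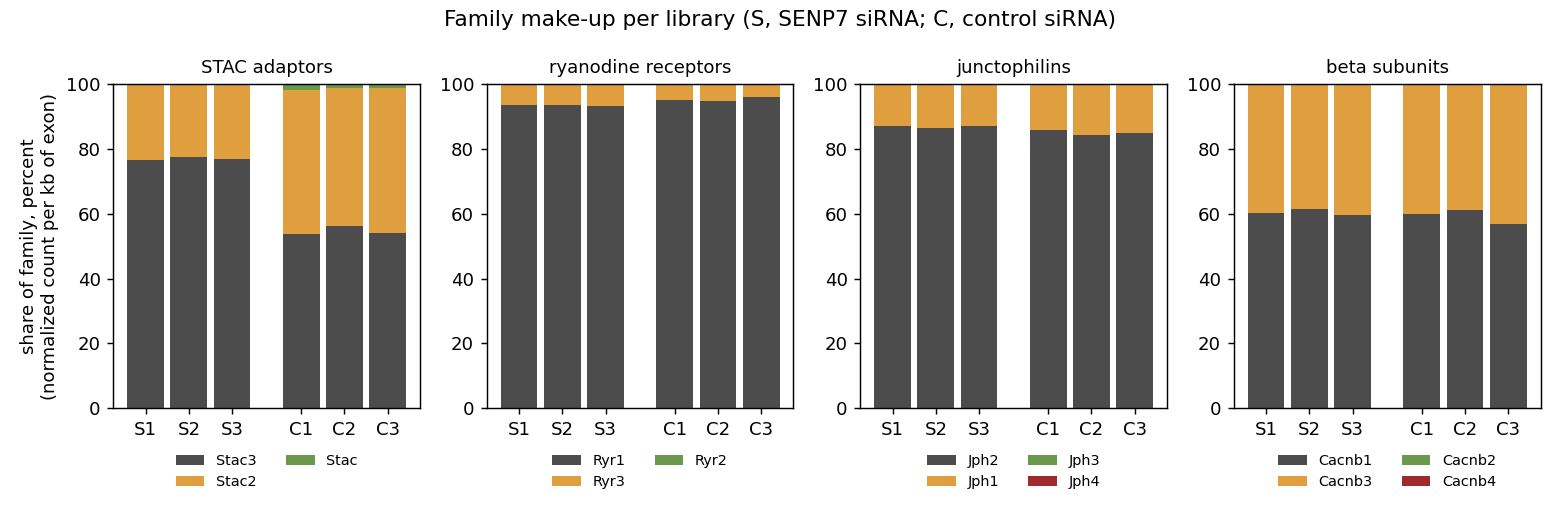
Share of each paralogue in its family's transcripts per library, in percent of the summed normalized count per kilobase of exon (S1 to S3, SENP7 siRNA; C1 to C3, control siRNA). Stac3 is at 76.4% to 77.5% of the STAC family in the SENP7 libraries and at 53.8% to 56.0% in the control libraries, and Ryr3 is at 6.5% to 6.75% of ryanodine receptors in the SENP7 libraries and at 4.11% to 5.23% in the control libraries.

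Among the other paralogues of the voltage sensor, 1 gene passed the test. Cacna1g, a low-voltage-activated T-type channel, had normalized counts of 118, 129 and 128 in SENP7 libraries, against 36.3, 31.2 and 76.8 in control libraries. Control replicate 3 was the nearest control to the SENP7 range (log2 fold change 1.47 ± 0.30, SE, adjusted p = 0.00865). Without that library the log2 fold change was 1.86 (limma adjusted p = 9.89e-06). The authors' deposited DESeq2 estimate for Cacna1g was smaller, at 0.96 (adjusted p = 0.000165). Shares were taken over 5 alpha1 genes only (Cacna1s, Cacna1c, Cacna1d, Cacna1g and Cacna1h). Of their summed level per kilobase, Cacna1g made up 0.669% in SENP7 libraries and 0.259% in control libraries. Cacna1s made up 99.2% in SENP7 libraries and 99.6% in control libraries. The cardiac channel Cacna1c had 2 reads in all over the SENP7 libraries and 2 over the control libraries, and its relative Cacna1d had 1 in each group. Cacna1h, another T-type channel, averaged 16.8 ± 4.76 in SENP7 libraries and 25.2 ± 4.5 in control libraries. It did not pass (adjusted p = 0.178).

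The beta subunits held 2 abundant genes. Cacnb3, a paralogue of Cacnb1, averaged 4181 ± 191 in SENP7 libraries and 4397 ± 262 in control libraries (SD, n = 3 each) and did not pass (adjusted p = 0.483). Per kilobase, Cacnb1 made up 60.4 ± 0.83% of beta transcripts in SENP7 libraries and 59.3 ± 2.2% in control libraries, with overlap. Cacnb2 stood at 84.6 ± 20.8 in SENP7 libraries and 79.9 ± 25.7 in control libraries. Among alpha2delta genes Cacna2d2 had 109, 104 and 124 in SENP7 libraries, against 46.4, 49.0 and 119.6 in control libraries. It did not pass (log2 fold change 0.78, adjusted p = 0.122) but did in 3 of 17 settings. One of these left out control replicate 3 (1.22, adjusted p = 0.000206; 0.000206 to 0.35 over all settings). For Cacna2d2 the authors' deposited DESeq2 estimate was 0.43 (adjusted p = 0.301). Cacng6, the relative of Cacng1 in muscle, averaged 59.4 ± 7.21 in SENP7 libraries and 69.7 ± 19.7 in control libraries and did not pass (adjusted p = 0.571).

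Ryr1 (ENSMUSG00000030592.18, chr7:29003344-29125179, minus strand), the release channel of skeletal muscle, had normalized counts of 29987, 29959 and 36278 in SENP7 libraries, against 23009.9, 27209 and 37673 in control libraries. Replicate 3 was the highest library of each group, and the control values spanned the whole SENP7 range. The log2 fold change was 0.16 ± 0.17 (SE, 95% interval -0.22 to 0.53, adjusted p = 0.552). Without control replicate 3 it was 0.35 and passed (adjusted p = 0.0216), and without control replicate 1 it was -0.0033 (0.0133 to 0.991 over all settings). With replicate 3 of both groups left out, a choice made after seeing the data, it was 0.26 (adjusted p = 0.0133).

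Genes with a long annotated exon length stood, at the median, higher in replicate 3 than in replicates 1 and 2 of the same group. Over 1313 tested genes with at least 10000 bases of exon, its median deviation from the mean of replicates 1 and 2 was 0.08 on the log2 scale in SENP7 libraries and 0.16 in control libraries. Over the 13355 shorter genes it was -0.02 in SENP7 libraries and -0.02 in control libraries. Ryr1, with 21838 bases of exon, deviated by 0.28 in SENP7 libraries and 0.59 in control libraries, and Ryr3, with 18977, by 0.31 in SENP7 libraries and 0.27 in control libraries. Cacna2d1, with 12416, deviated by -0.04 in SENP7 libraries and 0.23 in control libraries. The part of exon length in the results was not tested.

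Ryr3 (ENSMUSG00000057378.15, chr2:112631355-113217096, minus strand), the second release channel, is found in developing and some adult muscles, where it is not driven directly by the voltage sensor. It rose 1.59-fold. Its normalized counts were 1880.1, 1810.1 and 2282 in SENP7 libraries, against 1040.2, 1306 and 1404 in control libraries. Each SENP7 library lay above each control library. The log2 fold change, 0.67 ± 0.12 (SE, adjusted p = 0.0055), passed in every setting and was 0.66 without replicate 3 of both groups. The authors' deposited table gave 0.62 with an adjusted p of 1.17e-05. Exons of Aven on the opposite strand cover 4.83% of its exon length, and Aven averaged 464 in SENP7 libraries and 549.95 in control libraries.

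Ryr1 remained the main ryanodine receptor in both groups. Per kilobase, Ryr3 made up 6.73%, 6.5% and 6.75% of ryanodine receptor transcripts in SENP7 libraries, against 4.94%, 5.23% and 4.11% in control libraries. The log2 ratio of Ryr3 to Ryr1 averaged -4.01 ± 0.03 in SENP7 libraries and -4.53 ± 0.19 in control libraries (SD, n = 3 each), a difference of 0.52 with no overlap (exact permutation p = 0.1, the smallest possible). Without control replicate 3 that difference was 0.41. Ryr2, the cardiac form, had 4 reads over the SENP7 libraries and 7 over the control libraries.

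Jph1 (ENSMUSG00000042686.5, chr1:16964560-17097889, minus strand), the junctophilin of skeletal muscle, was the only one of the 10 genes to fall. Its normalized counts were 2800.2, 2775 and 2442 in SENP7 libraries, against 3152, 3645 and 3145 in control libraries. The groups did not overlap, and control replicate 2 was the highest library. On the log2 scale the change was -0.31 ± 0.08 (SE, adjusted p = 0.0262), and the authors' deposited table gave -0.30 with an adjusted p of 0.0149. The call was lost without SENP7 replicates 1, 2 or 3 (adjusted p = 0.0567, 0.0634 and 0.0833) and without control replicate 2 (adjusted p = 0.105; 0.00324 to 0.105 over all settings), while the direction held in every setting.

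Jph2 (ENSMUSG00000017817.11, chr2:163336242-163397993, minus strand), the junctophilin shared by heart and skeletal muscle, was the more abundant of the pair. Its normalized counts were 15730.2, 15138 and 13734 in SENP7 libraries, against 16043, 16385 and 15013 in control libraries. The groups overlapped, and the log2 fold change was -0.09 ± 0.08 (SE, 95% interval -0.26 to 0.08, adjusted p = 0.44). Per kilobase, Jph2 made up 86.7 ± 0.2% of junctophilin transcripts in SENP7 libraries and 84.9 ± 0.79% in control libraries (SD, n = 3 each). The log2 ratio of Jph2 to Jph1 was 2.48 ± 0.02 in SENP7 libraries and 2.26 ± 0.09 in control libraries, with no overlap (exact permutation p = 0.1). The brain junctophilins Jph3 and Jph4 had 2 and 4 reads over the SENP7 libraries and 1 and 8 over the control libraries.

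Jsrp1 (ENSMUSG00000020216.13, chr10:80808496-80813498, minus strand), also called JP-45, is a junctional sarcoplasmic reticulum protein that binds both the voltage sensor and calsequestrin, and it rose 1.35-fold. Its normalized counts were 5765, 5773 and 5064 in SENP7 libraries, against 4428, 4155 and 3746 in control libraries. Replicate 3 was the lowest library of each group, and the groups were separate. Its log2 fold change was 0.43 ± 0.08 (SE, adjusted p = 0.00684), it passed in every setting, and the authors' deposited table gave 0.41 with an adjusted p of 0.000104.

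**Figure D3:**
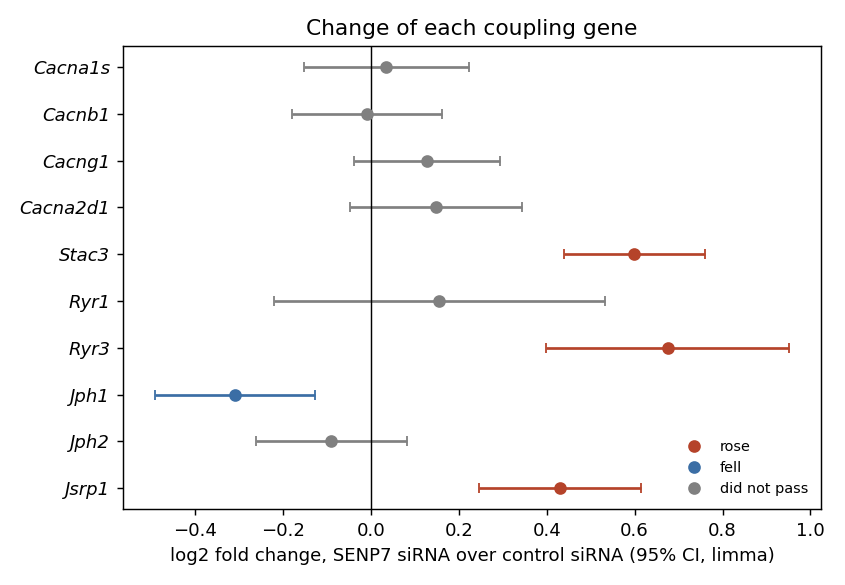
Log2 fold change of each coupling gene, SENP7 siRNA over control siRNA, with its 95% interval from limma (n = 3 libraries per group). The intervals of Stac3, Ryr3 and Jsrp1 lie above 0 and that of Jph1 below 0, and the interval of Ryr1, from -0.22 to 0.53, is the widest.

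The 10 genes spanned a wide range of levels, which are approximate between genes because all annotated exons entered the length. In SENP7 libraries Cacng1 stood highest at 7947 normalized counts per kilobase of exon, followed by Jsrp1 (4152), Jph2 (3494), Cacna1s (1837), Cacnb1 (1599.6), Ryr1 (1469), Stac3 (1256), Cacna2d1 (609), Jph1 (535) and Ryr3 (105). In control libraries the order was Cacng1 (7285), Jph2 (3716), Jsrp1 (3083), Cacna1s (1796), Cacnb1 (1608), Ryr1 (1342), Stac3 (829.5), Jph1 (663), Cacna2d1 (552) and Ryr3 (65.9). Jsrp1 stood above Jph2 in SENP7 libraries and below it in control libraries, without overlap of the libraries in either group. Likewise Jph1 stood below Cacna2d1 in SENP7 libraries and above it in control libraries. The ranges of Cacnb1 and Ryr1 overlapped in both groups, and those of Cacna1s and Cacnb1 in control libraries. Within each control library, however, Cacna1s stood above Cacnb1.

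**Figure D4:**
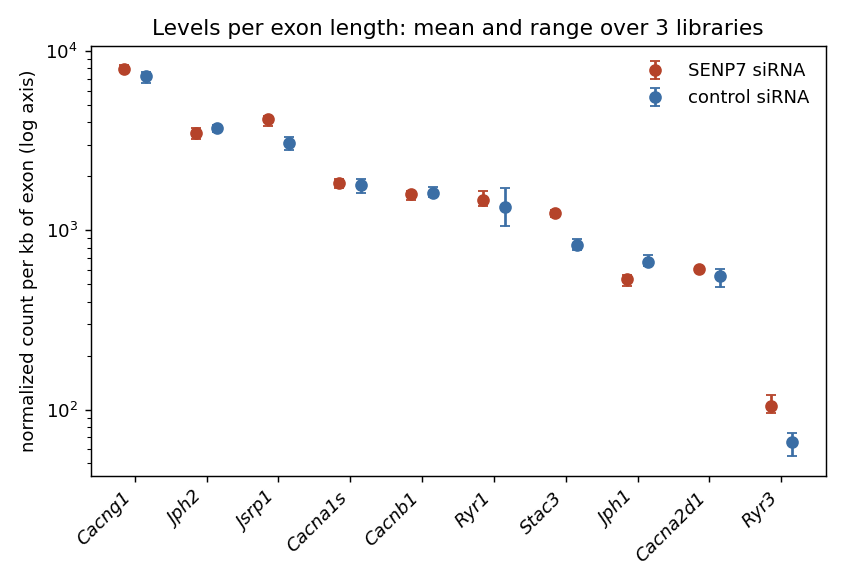
Level of each coupling gene in normalized counts per kilobase of exon (log axis), mean and range over 3 libraries, SENP7 siRNA left of control siRNA. Genes are ordered by their control level; Jsrp1 passes Jph2 and Cacna2d1 passes Jph1 in the SENP7 libraries.

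Of 23 paralogues of these genes, 11 were expressed enough to be tested, and 2 rose (Cacna1g and Itpr1) and 2 fell (Stac and Stac2), with a median log2 fold change of -0.07, beside the 10.2% that rose and 10.7% that fell among all genes tested. Of 36 partners of the release channel and of the triad, 35 were tested, and 9 rose, 4 fell and 22 did not pass, with a median of 0.02, beside the same 10.2% and 10.7% of all genes. Fsd2, a protein with fibronectin and SPRY domains, averaged 1209.7 ± 83 in SENP7 libraries and 286 ± 30.6 in control libraries (log2 fold change 2.08, adjusted p = 8.26e-06). The calcium-binding protein genes Hrc (log2 fold change 0.55) and Srl (0.55) rose, and Casq1, the store buffer that signals to the release channel, averaged 3610.1 ± 138 in SENP7 libraries and 7608 ± 1646 in control libraries (log2 fold change -1.05, adjusted p = 0.00122). Its paralogue Casq2, named after its values were seen, averaged 26908 ± 3790.1 in SENP7 libraries and 31333 ± 2926 in control libraries (SD, n = 3 each) and did not pass (log2 fold change -0.23, adjusted p = 0.209).

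Tmem38b, a counter-ion channel of the reticulum, rose by 0.40 on the log2 scale, and Prkaca, the catalytic subunit of protein kinase A, by 0.77. Cav3, the muscle caveolin, fell to 1446 ± 87.4 in SENP7 libraries, against 3281 ± 343 in control libraries. The scaffold gene Homer3 fell by 0.38 on the log2 scale, and exons of Ddx49 on the opposite strand cover 25.4% of its exon length. These 8 genes had the smallest adjusted p of the partners that passed, and each passed in every setting run.

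The genes whose profile over the 6 libraries lay nearest to that of Stac3, of 11204 genes ranked (mean normalized count 50 or more), were Mb, the myoglobin gene, the transcription factor gene Maf, and Hrc. Their root mean square differences from Stac3 were 0.0389, 0.0409 and 0.0454 on the centred log2 scale. For Ryr1 they were Zbtb37, Atm and Macf1, at 0.0284, 0.0379 and 0.0389. Those nearest Stac3 passed the limma test (adjusted p between 0.000876 and 0.00171), and those nearest Ryr1 did not (between 0.484 and 0.643). Both outcomes follow from choosing genes by their likeness.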

How the data were processed

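The deposited table held, for 55401 genes, a normalized signal per library, which from the values was the authors' read count divided by 1 factor per library. It also held the authors' mean over libraries, their log2 fold change with a standard error and a Wald score, their p-value with its adjusted p-value, and exon length in bases, per the file headers. The submitters' processing notes name DESeq2, featureCounts 1.6.4, STAR 2.6.1d, Trim Galore 0.6.4 and bcl2fastq, and GRCm38.p6 as the genome. The library kit keeps the strand, but whether the counting used it is not given in the sources used here, so reads of overlapping opposite genes could not be assigned with certainty. Dividing a library's values by its smallest step gave whole reads (tolerance 0.1 read) for 100% of values above 0. The recovered totals were 25434880 to 30865945 reads in SENP7 libraries and 25223218 to 27763538 in control libraries, and genes with more reads are measured more precisely.

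limma 3.58.1 (R 4.3.3) with trended, robust variance moderation was fitted on log2(normalized count + 1), which understates the change of low genes. A gene entered when 3 or more libraries held a normalized count of 10 or more (14668 genes), and tests were two-sided with Benjamini-Hochberg adjustment over all of them and a threshold of 0.05. The p-values measure only the spread between these libraries, which may be technical. Ratios between genes were compared by exact permutation of the 6 libraries. Control replicate 3 stood apart, with a first principal component (64.4% of variance) of 19.1, against 36.7 and 33.3 in the other control libraries and -32.5 to -27.7 in SENP7 libraries.

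All 10 genes were named. From the 23 paralogues those with a mean of at least 10 could be named, and others appear as read totals chosen after their values were seen. From the 36 partners the 8 with the smallest adjusted p were named. The genes nearest in profile to Ryr1 and Stac3 were ranked without predicted genes and pseudogenes. The genes and lists were chosen with earlier results of these data known. The alternatives included the replicate number as a block, edgeR 4.0.16 and DESeq2 1.42.0 on recovered reads, TMM and quantile scaling, pseudocounts of 0.5 and 5, other filters, a threshold of 0.01, and each library left out. The procedure was also run on simulated counts with the same spread setting for all genes. No simulated library stood apart, unlike control replicate 3 here, so that run cannot speak to such a library.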

Additional observations from a re-analysis of the deposited data

How the results depend on the processing

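Stac3, Ryr3 and Jsrp1 kept their direction and call in every setting, at the 0.01 threshold too. Leaving out 1 library gave 3 to 5 rises and 0 to 1 falls among the 10 genes, 1 to 3 rises and 2 to 3 falls among the paralogues, 7 to 10 rises and 3 to 6 falls among the partners, and 805 to 2289 rises and 754 to 2413 falls among all tested genes. The 5 rises were without control replicate 3, the 0 falls without SENP7 replicate 1, 2 or 3 or control replicate 2. Among all genes, SENP7 replicates 1 and 2 and control replicate 2 lowered both counts by over 1.5 times when left out, and control replicate 3 raised both. Without replicate 3 of both groups, a choice made after seeing the data, 5 of the 10 genes rose, 9 partners fell, and 2389 of all genes rose and 2560 fell. At the 0.01 threshold 0 of the 10 genes fell, 1 paralogue rose, and 718 of all genes rose and 680 fell. The falling paralogues were 4 without a filter on low genes and 1 with a mean of at least 50. Among the named genes, signs turned for these, none of which passed in the reported fit: with 1 library left out, the log2 fold change ranged from -0.0033 to 0.352 for Ryr1, -0.0384 to 0.0897 for Cacna1s, -0.0383 to 0.0486 for Cacnb1, -0.0878 to 0.345 for Cacnb2, -0.39 to 0.0114 for Cacng6 and -0.149 to 0.0589 for Itpr2. Cacnb1 was 0.0582 with quantile normalization and 0.0161 without replicate 3 of both groups, and Cacnb3 was 0.0019 without replicate 3 of both groups. The cause was not tested. The 4 ratios between genes kept their sign, between 0.08 and 0.63 with 1 library left out.

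The reported fit did not pair libraries by replicate number. Same-numbered deviations correlated at 0.13, 0.0624 and 0.251, the last, between SENP7 replicate 3 and control replicate 3, being the highest of all. Replicate 3 of either group correlated negatively with replicates 1 and 2 of the other group (-0.22 to -0.0995). Deviations were taken from each group's own mean, so the value of 0.251 by itself forces negative values on balance there. They are not a further observation about pairing. SENP7 replicate 2 correlated better with control replicate 1 (0.141) than with control replicate 2. Whether the numbers pair the libraries was therefore not settled. With the replicate number as a block 3 of the 10 genes rose and 1 fell, and 2052 of all genes rose and 2123 fell; Cacna2d2 passed with it (adjusted p = 0.0276) and, at 0.000283, without replicate 3 of both groups. On the recovered reads edgeR's quasi-likelihood test called 1467 rises and 1568 falls among all genes, and DESeq2 1408 and 1552. The median log2 fold change of all genes moved by less than 0.1 under TMM and quantile scaling. Both methods align the libraries with each other, so this median had little room to move. Each of the 10 genes had a higher log2 fold change under quantile scaling, with the same calls. Cacna1s was at 0.097 there, against 0.035 in the reported fit, and Cacng1 at 0.18, against 0.13.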

Other observations

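Inositol trisphosphate receptors are the other calcium release channels of the reticulum, opened by a second messenger and not by voltage. Itpr1 had normalized counts of 685, 685 and 836 in SENP7 libraries, against 457, 479.5 and 638 in control libraries. The groups were separate, with a log2 fold change of 0.50 ± 0.13 (SE, limma adjusted p = 0.0302), but the call was lost without SENP7 replicate 1, 2 or 3 or control replicate 1 or 2 (adjusted p of 0.0639 to 0.128; the lowest in any setting was 0.000163). Itpr3, the most abundant of the family, had 3643, 3449 and 3910.5 in SENP7 libraries, against 4079, 4312 and 5151 in control libraries. Its log2 fold change of -0.29 ± 0.09 narrowly missed the threshold (adjusted p = 0.0511), and it passed in 6 settings (0.00452 to 0.179 over all). One of these left out control replicate 3 (-0.195, limma adjusted p = 0.0445). The authors' deposited table gave -0.29 for Itpr3 with an adjusted p of 0.0415, which is below 0.05. Itpr2 averaged 607 ± 90.3 in SENP7 libraries and 620.0 ± 69.9 in control libraries (SD, n = 3 each). It did not pass the limma test (adjusted p = 0.865).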
